A study of Mus musculus with 8 samples.

Results

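The imprinted domain that runs from Dlk1 to Dio3 on mouse chromosome 12 was examined for 5-hydroxymethylcytosine (5hmC) during reprogramming of fibroblasts to pluripotency. Its members were all peaks of the 8 deposited 5hmC lists that shared at least 1 bp with chr12:110650001-111550000 (mm9), a window of 900 kb. They numbered 522 of the 684512 peaks in all lists. Each group was 1 library: OySyNyK intermediates at D1, D3 and D5, OSNK intermediates at D1, D3 and D5, induced pluripotent stem cells (iPSC) and mouse embryonic fibroblasts (MEF), the starting cells. D was read as day. OSNK stands for Oct4, Sox2, Nanog and Klf4, and in OySyNyK, as the study is known, all of these but Klf4 are fused to the activation domain of YAP. By their title the iPSCs were made with the OySyNyK factors. Per the labels' protocols the fibroblasts were OG2-MEFs, vitamin C and LIF were in the medium during iPSC generation, and iPSCs were kept on MEF feeder cells inactivated with mitomycin C. How much feeder DNA reached the iPSC library was not tested, and the lists do not tell the parental alleles apart. The labelled cell types could not be checked by expression, since the lists hold no expression values.

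5hmC is made from 5-methylcytosine by the TET enzymes, mostly at CpG dinucleotides, and is an intermediate on one route of DNA demethylation. In the Dlk1 to Dio3 domain, the paternal copy expresses the protein-coding genes and the maternal copy expresses the long non-coding RNAs, under the control of a methylated region between Dlk1 and Meg3. The maternal RNAs of this domain are known to be silenced in some mouse iPSC lines. Dlk1 encodes a Notch-like membrane protein that holds back fat cell differentiation. Meg3 is a long non-coding RNA, Rtl1 is a retrotransposon-derived gene needed in the placenta, Rian hosts small nucleolar RNAs, Mirg hosts microRNAs, and Dio3 encodes a deiodinase that inactivates thyroid hormone. In the RefSeq annotation (GRCm38.p6) all 6 genes were found, in the order Dlk1, Meg3, Rtl1, Rian, Mirg and Dio3, with 61 microRNA genes and 19 small nucleolar RNA genes between the outer ones. Begain was the protein-coding gene before Dlk1 and Ppp2r5c the one after Dio3. The peak lists are in another assembly than this annotation, so single peaks and bins were not assigned to genes, and bins are numbered from 1 at the proximal (Dlk1) end to 18 at the distal (Dio3) end.

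Promoter windows of the genes, which run from 250 bases before to 50 after the start, are shown because the CpG dinucleotides they hold are the sites at which 5hmC can arise. They come from RefSeq (GRCm38.p6, plus strand), are written 5′ to 3′, and have each CpG in capitals. The sequences shown are those of Dlk1 at chr12:109452573-109452872 and Dio3 at chr12:110278980-110279279, which are the outer genes, and Meg3 at chr12:109540746-109541045, the first of the maternal RNAs.
Dlk1: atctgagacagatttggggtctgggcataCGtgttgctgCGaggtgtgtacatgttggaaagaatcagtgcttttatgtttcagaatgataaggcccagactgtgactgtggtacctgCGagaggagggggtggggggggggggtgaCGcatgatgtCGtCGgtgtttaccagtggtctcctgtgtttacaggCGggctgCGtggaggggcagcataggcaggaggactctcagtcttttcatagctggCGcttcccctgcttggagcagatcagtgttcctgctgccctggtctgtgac
Meg3: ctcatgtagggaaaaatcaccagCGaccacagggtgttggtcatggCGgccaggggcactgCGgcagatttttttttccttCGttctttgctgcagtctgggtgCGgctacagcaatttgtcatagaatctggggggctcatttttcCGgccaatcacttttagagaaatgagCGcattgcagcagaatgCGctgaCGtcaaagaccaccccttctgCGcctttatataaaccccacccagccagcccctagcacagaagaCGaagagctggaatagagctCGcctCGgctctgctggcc
Dio3: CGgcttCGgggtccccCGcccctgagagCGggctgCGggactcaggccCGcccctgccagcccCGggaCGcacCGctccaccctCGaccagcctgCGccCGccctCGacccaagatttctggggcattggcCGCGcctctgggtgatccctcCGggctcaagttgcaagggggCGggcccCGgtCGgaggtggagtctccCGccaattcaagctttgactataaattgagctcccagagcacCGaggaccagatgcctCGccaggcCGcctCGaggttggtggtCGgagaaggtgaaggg
The Dio3 window held 25 CpG dinucleotides, the Meg3 window shown 13 and the Dlk1 window 9, against a median of 7 over 32851 promoter windows of the mouse genome. The Mirg window held 10 and the Rian window 0. A further Meg3 window held 1. The letters TATAAA, searched on both strands, were found in the Dio3 window and in the Meg3 window shown, where the matches on the 2 strands overlap, and in 13.6% of all windows. The letters TGCCGC, known as the core of the sequence bound by the imprint-keeping factor ZFP57, were found in the Meg3 window shown on the reverse strand, and in 11.6% of all windows. A match is a description of the sequence, and none of these windows was set against the peaks.

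Peaks in the domain numbered 63 in MEF, 76, 66 and 42 over the days of OySyNyK (D1, then D3, then D5), 89, 51 and 42 over those of OSNK, and 93 in iPSC. The list lengths were 65776 in MEF, 100951, 93694 and 70592 with OySyNyK, 116302, 89497 and 92762 with OSNK, and 54938 in iPSC. The iPSC list was therefore the shortest but held the most domain peaks, 0.169% of its peaks (exact 95% interval 0.137 to 0.207), against 0.0958% of the MEF peaks (0.0736 to 0.123). At D5 the shares were 0.0595% with OySyNyK (0.0429 to 0.0804) and 0.0453% with OSNK (0.0326 to 0.0612). These intervals cover counting error only. Read depth is unknown, no group has a replicate, and no test between groups was made, so the differences below are descriptions of these 8 libraries.

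Peak cover of the domain, the percentage of its sequence that lies in peaks, was lowest at D5 with both methods and highest in iPSC. MEF had 7.32%, OySyNyK 6.91% at D1, 5.53% at D3 and 3.72% at D5, OSNK 7.84% at D1, 6.08% at D3 and 3.44% at D5, and iPSC 8.50%. The covered sequence amounted to 33.5 kb at OySyNyK D5 and 30.9 kb at OSNK D5, against 65.9 kb in MEF. Cover at D5 differed from that at D1 by -3.18 percentage points with OySyNyK and by -4.41 with OSNK. The D5 libraries also lay below MEF, by -3.60 points with OySyNyK and -3.89 with OSNK, and iPSC lay above them by 4.78 and 5.06 points. These signs were the same with equal numbers of peaks, with a score of at least 100, with peaks of 500 bp, without bin 1 and when the flanks' cover was subtracted. The sizes were not: with equal numbers of peaks the D5 to D1 differences were -1.19 points with OySyNyK and -1.96 with OSNK.

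**Figure D1:**
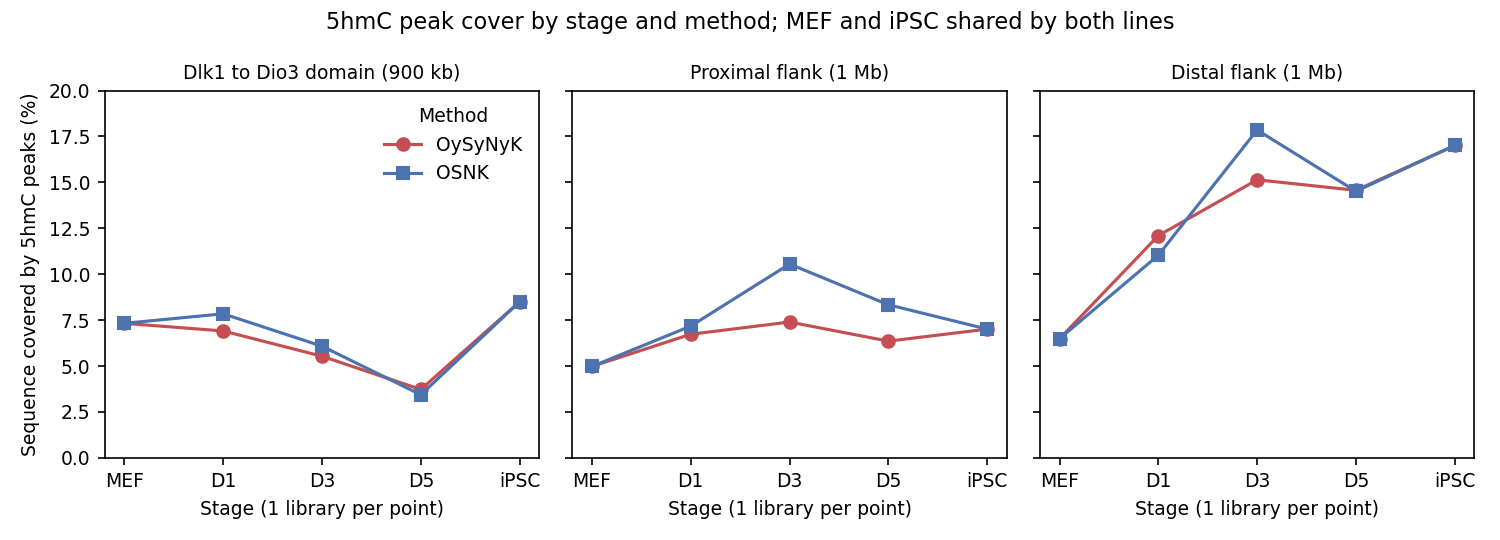
Percentage of sequence covered by 5hmC peaks (y axis) by stage (x axis) in the Dlk1 to Dio3 domain and its flanks; each point is 1 library, and MEF and iPSC are shared by the OySyNyK and OSNK lines. By its title the iPSC library was made with OySyNyK, so the OSNK line has no iPSC point of its own. Domain cover reaches its low at D5 (3.72% and 3.44%) and 8.50% in iPSC, while distal flank cover lies above its MEF value of 6.48% in every later library.

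The flanks of 1 Mb on each side were covered above their MEF level in every later library. The proximal flank, chr12:109650001-110650000, was covered to 4.98% in MEF, to 6.73%, 7.39% and 6.35% over the days of OySyNyK, to 7.17%, 10.6% and 8.33% over those of OSNK, and to 7.01% in iPSC. The distal flank, chr12:111550001-112550000, was covered to 6.48% in MEF, to 12.1%, 15.1% and 14.6% with OySyNyK, to 11.0%, 17.8% and 14.5% with OSNK, and to 17.0% in iPSC. Domain cover was 1.28 times that of both flanks together in MEF. Over the days of OySyNyK that ratio was 0.734, 0.491 and 0.356, over those of OSNK 0.862, 0.428 and 0.301, and in iPSC 0.708. MEF was thus the library in which the domain stood above the pooled flanks. Against the proximal flank alone the domain also stood higher at OySyNyK D1 (1.03 times), at OSNK D1 (1.09 times) and in iPSC (1.21 times), with 1.47 times in MEF. The proximal flank includes the stretch from 110400001 to 110600000, which held no peak in any library. This lowers the flank's cover and raises the ratios to it, here and for the pooled flanks. Against the distal flank alone the ratio was 0.256 at OySyNyK D5 and 0.237 at OSNK D5, against 1.13 in MEF.

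Set against the mean of all 52757 bins of 50 kb, the domain was densely covered in every library, by 3.07 times in MEF, 2.37, 1.96 and 1.71 times over the days of OySyNyK, 2.25, 1.63 and 1.29 times over those of OSNK, and 5.45 times in iPSC. Relative to the mean of all bins, the rest of chromosome 12 was itself more densely covered in iPSC than in the other libraries. The ratio was 1.64 in iPSC, against 0.932 in MEF and 0.846 to 0.898 in the intermediates. Its cover as such was 2.55% in iPSC, and higher at OSNK D1 (3.13%), OSNK D3 (3.30%) and OySyNyK D1 (2.58%). Relative to the rest of chromosome 12, domain cover was 3.33 times in iPSC and 3.29 times in MEF. By that measure OySyNyK had 2.68, 2.32 and 1.98 times and OSNK 2.51, 1.84 and 1.44 times at D1, D3 and D5, so the low point at D5 was present on this scale as well, while iPSC and MEF were nearly equal. The part of the chromosome-wide excess in the iPSC values of the domain was not tested.

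**Figure D2:**
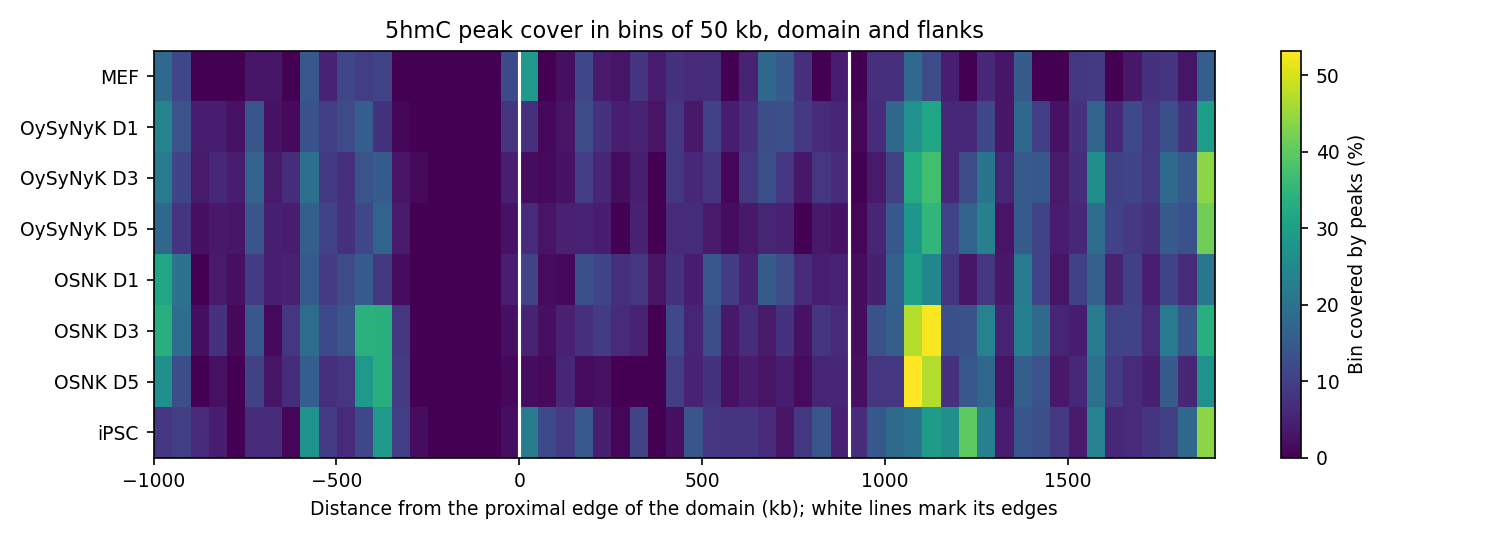
Percentage of each 50-kb bin covered by 5hmC peaks (colour) against distance from the proximal edge of the domain in kb (x axis) for the 8 libraries (y axis). Inside the white lines the first bin is bright in iPSC (22.5%) and MEF (28.6%) and dark at OSNK D5 (1.80%), and the bin of the distal flank with 18.2% in MEF reaches 53.2% at OSNK D5.

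Over the 18 bins, the difference from D1 to D5 was spread along most of the domain. With OySyNyK, 15 bins were lower at D5 than at D1, and 5 of them by at least 5 percentage points, the size used here for a called difference. With OSNK, 13 bins were lower and 9 of them by that size. In the genome, bins lower by that size made up 11.4% with OySyNyK and 11.7% with OSNK, among bins with a peak on either day. Only bins with at least 5% cover at D1 can be called lower. The median domain bin had 6.88% at OySyNyK D1 and 7.59% at OSNK D1, against 3.68% and 4.05% for all bins with a peak. In the proximal flank, 3 bins with OySyNyK and 1 with OSNK were lower by that size, and in the distal flank 0 and 2. Those higher numbered 1 and 3 in the proximal flank and 5 and 5 in the distal one. No bin of the domain was higher by 5 points with either method, where 3.09% and 3.68% of all bins were. The median difference over the bins of the domain was -2.97 points with OySyNyK and -5.66 with OSNK, against -1.12 and -1.19 over all bins. The called bins numbered 2 with OySyNyK and 4 with OSNK when all lists had equal numbers of peaks. The shares over all bins given above hold for the full lists, so these lower counts cannot be set against them.

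The bins called with both methods were 4, 11, 14 and 15. Bin 14, at chr12:111300001-111350000, was covered to 17.99% in MEF, to 12.7%, 13.1% and 5.41% over the days of OySyNyK, to 15.5%, 3.78% and 2.83% over those of OSNK and to 6.32% in iPSC. With OSNK it had dropped by D3, and with OySyNyK only at D5. Bin 15, the next one distally, had 15.3% in MEF, 12.9%, 8.35% and 4.92% with OySyNyK, 12.5%, 7.77% and 4.23% with OSNK and 2.86% in iPSC. Bin 4, at chr12:110800001-110850000, had 11.3% in MEF, 12.4%, 9.61% and 5.03% with OySyNyK, 13.0%, 7.29% and 1.60% with OSNK and 14.8% in iPSC. Cover in bin 4 was thus as high in iPSC as in MEF, while bins 14 and 15 were low in iPSC.

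Bin 1, at the Dlk1 end (chr12:110650001-110700000), had the highest cover of the domain in both iPSC and MEF. It was covered to 28.6% in MEF and only to 7.27%, 1.79% and 6.40% over the days of OySyNyK and 11.0%, 5.12% and 1.80% over those of OSNK, with 22.5% in iPSC. The difference from MEF was present by D1, at -21.3 points with OySyNyK and -17.6 with OSNK. On that day 2 domain bins with OySyNyK (1.86% of all bins) and 1 with OSNK (1.47% of all bins) were lower than MEF by 5 points or more, and 1 with OySyNyK (9.45%) and 3 with OSNK (14.1%) were higher. Without bin 1 the domain was covered to 3.57% at OySyNyK D5, 3.53% at OSNK D5, 7.67% in iPSC and 6.07% in MEF.

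At OSNK D5, bins 6, 7 and 8 held no peak, and at OySyNyK D5 the bins with no peak were 6, 8 and 16. MEF also had 3 domain bins with no peak. Over all bins, 60.8% held no peak at OySyNyK D5, 54.1% at OSNK D5 and 53.8% in MEF. In bin 6, cover was 0% at D5 of both methods, against 4.53% at OySyNyK D1, 7.33% at OSNK D1 and 3.01% in MEF, and it was 0.980% in iPSC. Bin 8 had 4.02% in MEF, 2.72% at OySyNyK D1 and 2.75% at OSNK D1, and no peak at any later stage. Bin 7 had 4.90% at OySyNyK D5 and 10.9% in iPSC, and bin 16 had 1.53% at OSNK D5 and 8.50% in iPSC.

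**Figure D3:**
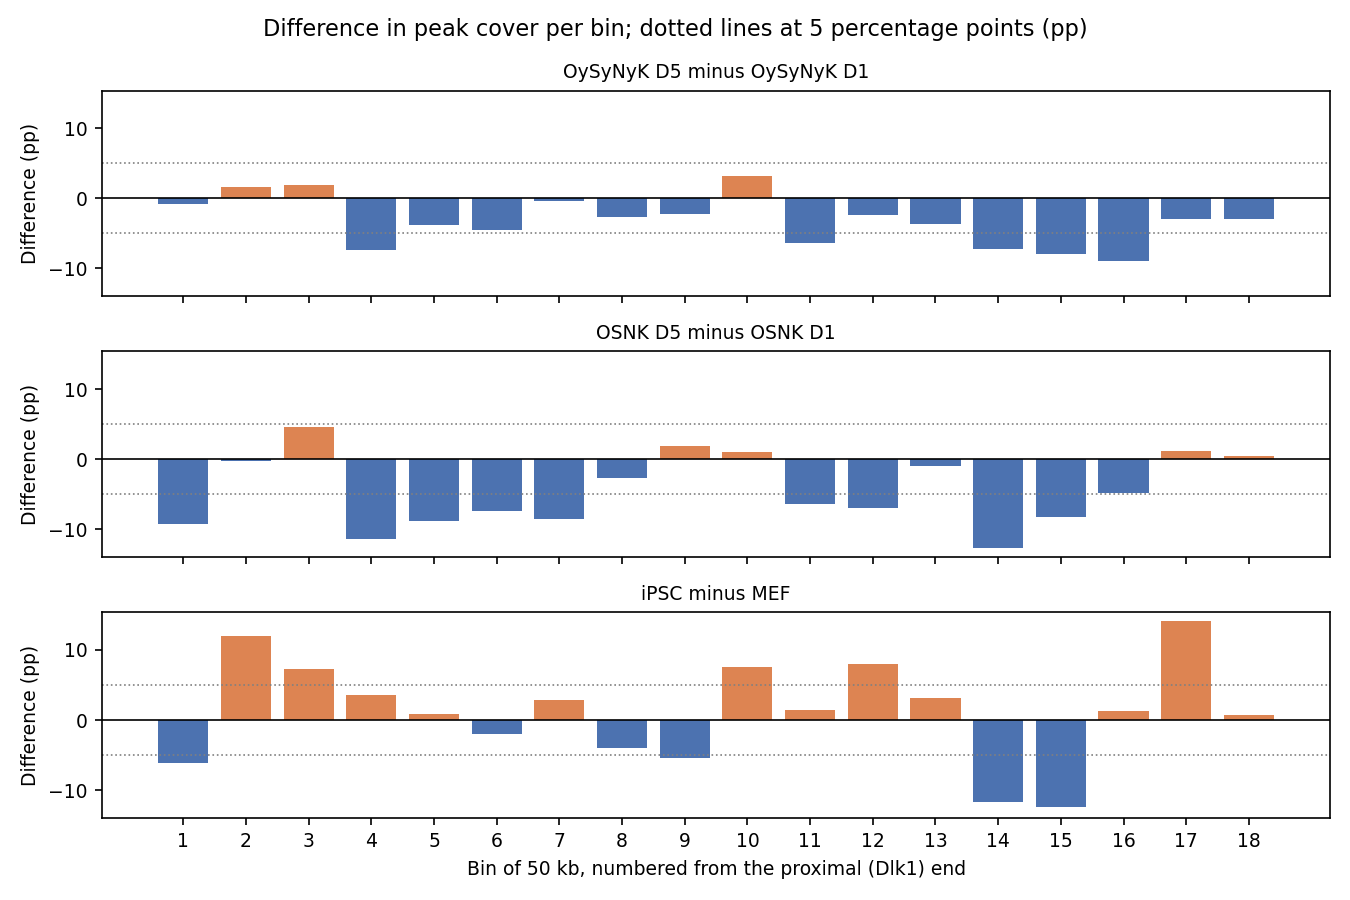
Difference in peak cover per 50-kb bin in percentage points (y axis) for the 18 bins of the domain (x axis), for D5 minus D1 of OySyNyK and of OSNK and for iPSC minus MEF; dotted lines mark 5 points. Most bars of the D5 minus D1 panels point down, while the iPSC minus MEF panel has 12 bars up and 6 down, with bins 14 and 15 lowest.

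In iPSC the domain had about as much 5hmC cover as in MEF, in part at other places. The series holds no iPSC library made with OSNK. Bin 1 was the most covered bin in both, and 39.7% of the MEF domain peaks were overlapped by an iPSC peak. iPSC exceeded MEF by 1.17 percentage points over the whole domain, with 12 bins higher and 6 lower. Bins higher by at least 5 points numbered 5 (6.76% of all bins), and bins lower by as much numbered 4 (16.7% of all bins). The median difference over the bins of the domain was 1.41 points, against -1.30 over all bins. The rest of chromosome 12 was also covered more in iPSC (2.55%) than in MEF (2.22%), unlike all bins (1.56% and 2.39%). The flanks too were higher in iPSC, the proximal one by 2.03 points and the distal one by 10.5. For the domain, the sign of the total depended on the setting: with a score of at least 100 it was -0.524 points, and relative to the flanks -5.10 points.

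The largest iPSC excesses were in bins that held no MEF peak. Bin 17, at chr12:111450001-111500000 near the Dio3 end, was covered to 14.1% in iPSC and 0% in MEF, and already to 6.59%, 8.49% and 3.63% over the days of OySyNyK and 4.39%, 8.03% and 5.60% over those of OSNK. Bin 2, at chr12:110700001-110750000, reached 11.9% in iPSC and 0% in MEF, but the intermediates only 1.13% to 2.78%. Bin 12 had 7.95% in iPSC and 0% in MEF, with 9.39% at OSNK D1 and 4.0% at OySyNyK D1. The iPSC value of bin 17 thus followed cover at every earlier day, and that of bin 2 hardly any. The largest MEF excesses were in bins 15, 14 and 1, with iPSC minus MEF differences of -12.4, -11.7 and -6.07 points. Bin 9 was the remaining bin lower by 5 points, with 2.26% in iPSC and 7.63% in MEF.

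iPSC and the D5 libraries differed in most bins. iPSC was higher than OySyNyK D5 in 15 bins and than OSNK D5 in 14, and in 8 bins by at least 5 points in each comparison, where 4.65% and 5.82% of all bins were. Bins lower in iPSC by 5 points numbered 0 against OySyNyK D5 (14.4% of all bins) and 1 against OSNK D5 (19.2% of all bins). Each flank has 20 bins. Those higher in iPSC by 5 points than OySyNyK D5 and OSNK D5 numbered 4 and 8 in the distal flank and 3 and 2 in the proximal one. Those lower numbered 2 and 3 in either flank. In the domain, D5 against MEF went the opposite way, with 5 bins lower by 5 points at OySyNyK D5 (9.32% of all bins) and 6 at OSNK D5 (7.3% of all bins), and with 0 (8.35%) and 1 (11.7%) higher. Only bins with at least 5% cover in MEF can be called lower than it. The median domain bin of MEF had 5.77%, against 3.26% for all its bins with a peak. In each method, 1 proximal and 0 distal flank bins were lower at D5 than in MEF by 5 points. Those higher numbered 3 and 6 in the proximal flank and 13 and 9 in the distal one, for OySyNyK and OSNK. These comparisons share the D5, MEF and iPSC libraries. With a score of at least 100 the bins higher in iPSC numbered 4 and 5, and with 500-bp peaks the bins lower than MEF numbered 3 and 3. No share of all bins is given in these settings, so the counts cannot be set against the genome.

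The methods gave much the same cover of the domain. OySyNyK minus OSNK was -0.935 percentage points at D1, -0.547 at D3 and 0.287 at D5, against -0.960, -1.71 and -0.954 points over all bins tested on these days. At D1, 1 bin of the domain was lower with OySyNyK by at least 5 points (5.57% of all bins) and 0 were higher (1.93%). That was bin 12, with 4.0% with OySyNyK and 9.39% with OSNK. At D3, 1 bin was higher with OySyNyK (3.44% of all bins) and 0 were lower (15.7%). That was bin 14, with 13.1% with OySyNyK and 3.78% with OSNK. At D5, 0 bins were higher (4.26%) and 0 lower (9.69%). With a score of at least 100 the D5 difference was -0.498 points, and with 500-bp peaks the D3 difference was 0.791 points.

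Peaks were then followed one by one. Of the 63 MEF peaks of the domain, 46 were overlapped at OySyNyK D1, 34 at D3 and 20 at D5, which are 73.0%, 54.0% and 31.7% (exact 95% interval at D5 20.6 to 44.7). With OSNK, 45, 23 and 17 were overlapped, or 71.4%, 36.5% and 27.0% (16.6 to 39.7). In iPSC, 25 of them were overlapped, or 39.7% (27.6 to 52.8), against 17.4% of all MEF peaks (17.1 to 17.7). The flanks had similar shares in iPSC, 42.5% in the proximal (27.0 to 59.1) and 50.0% in the distal one (36.3 to 63.7). In the distal flank, 66.1% of the 56 MEF peaks were overlapped at OySyNyK D5 (52.2 to 78.2) and 76.8% at OSNK D5 (63.6 to 87.0). These D5 intervals do not overlap those of the domain. Such comparisons of intervals, here and below, take peaks of the same library as independent and are no test between regions. In the proximal flank, 47.5% of the 40 MEF peaks were overlapped at OySyNyK D5 (31.5 to 63.9), an interval that overlaps the domain's, and 60.0% at OSNK D5 (43.3 to 75.1), which does not. Over the whole MEF list, 36.3% were overlapped at OySyNyK D5, inside the domain's interval, and 41.3% at OSNK D5, above it. The distal flank stood above the list, and at D1 it had 91.1% with OySyNyK and 87.5% with OSNK.

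Of the 93 iPSC peaks of the domain, 26 were overlapped by a MEF peak, 28.0% (19.1 to 38.2). At D1, D3 and D5, 20.4%, 25.8% and 28.0% were overlapped with OySyNyK, and 22.6%, 18.3% and 15.1% with OSNK. Over the whole iPSC list these shares were 27.6%, 35.6% and 38.9% with OySyNyK and 24.2%, 28.9% and 30.9% with OSNK. For the OSNK days the domain thus ran against the order seen over the list, with the D1 and D5 intervals of the domain, 14.6 to 32.4 and 8.48 to 24.0, overlapping. Seen from the D5 lists, 25 of the 42 OySyNyK peaks (59.5%, 43.3 to 74.4) and 14 of the 42 OSNK peaks (33.3%, 19.6 to 49.5) overlapped an iPSC peak. Over the whole lists these shares were 29.9% and 18.1%. For OySyNyK D5 the proximal flank had 52.3% and the distal flank 63.6%, and for OSNK D5 they had 40.5% and 47.9%, inside the domain's intervals.

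**Figure D4:**
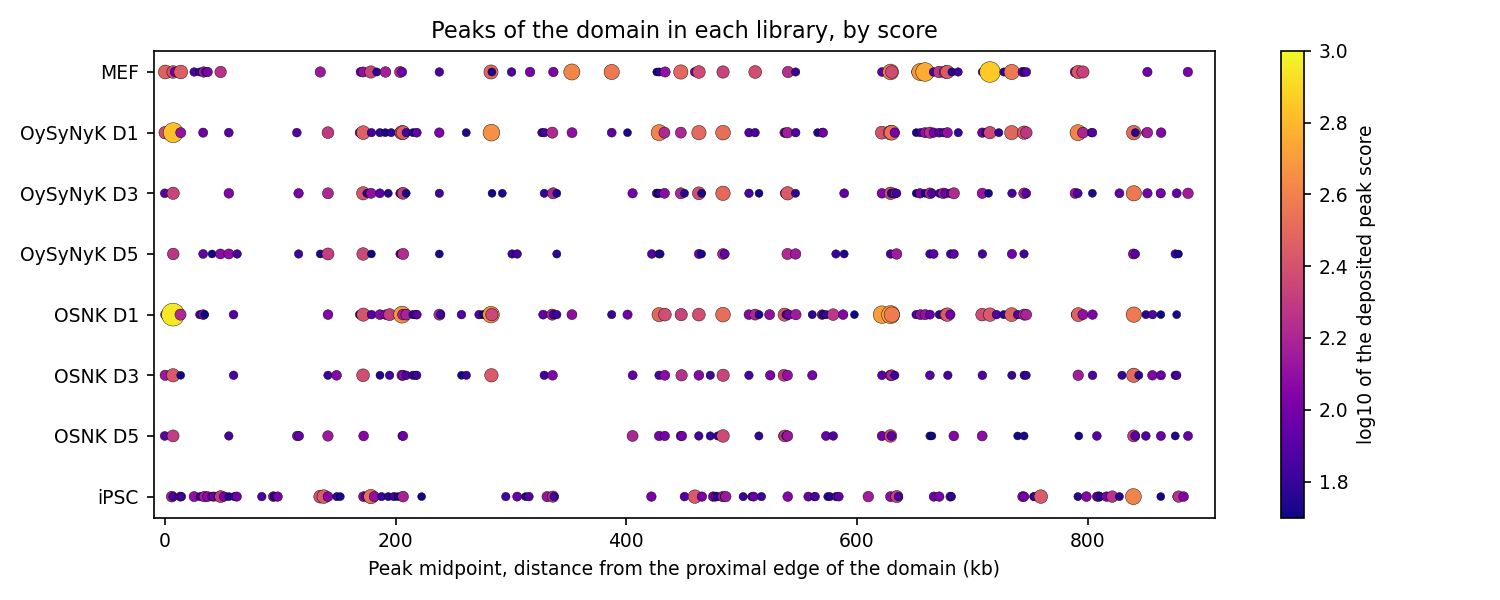
Midpoints of all 522 domain peaks, as distance from the proximal edge in kb (x axis), in each library (y axis); colour is the log10 of the deposited score, and larger points have higher scores. The rows of the D5 libraries hold 42 peaks each and the iPSC row 93, and within each D1 row the strongest point sits near the proximal edge.

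Peaks of all lists that shared bases were merged, which gave 180 separate regions in the domain. Of these, 7 were found in all 8 libraries, 22 in at least 6, and 67 in 1 library, of which 45 were in iPSC only. The counts for all 8, at least 6 and 1 library are 3.89%, 12.2% and 37.2% of the domain's regions, close to the 2.58%, 15.0% and 39.1% of all regions. iPSC-only regions made up 25.0% of the domain's regions (18.9 to 31.99), 24.0% of the distal flank's (19 to 29.7), 17.6% of the proximal flank's (12.1 to 24.3) and 10.9% of all 222790 regions. Regions in iPSC but not MEF numbered 64, or 35.6% against 18.4% of all regions and 47.7% of those in the distal flank. Regions in MEF but not iPSC numbered 36, or 20.0% against 22.9% of all regions. Of the 88 regions present in iPSC, 52 were found in no intermediate (59.1%, 48.1 to 69.5), against 63 of 151 in the distal flank (41.7%, 33.8 to 50.0) and 47.7% of all iPSC regions.

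A group of regions was found in MEF and iPSC but not at D5. Of the 24 domain regions found in both MEF and iPSC, 11 were absent from both D5 lists (45.8%, 25.6 to 67.2), against 18.6% of all such regions (17.9 to 19.3), 1 of 18 in the proximal flank and 2 of 26 in the distal flank. With equal numbers of peaks the count was 11 of 20, against 23.0% of all such regions. This grouping was chosen after the values were seen. Of the 24 regions, 7 were absent from all 6 intermediates, as were 911 of the 11659 regions of all lists found in both MEF and iPSC. These made up 3.89% of the domain's regions, 0.409% of all regions and 0% of those in either flank. Of the 7, 3 lay in bin 1, at chr12:110655218-110656424, chr12:110674502-110675953 and chr12:110686248-110687370. Their scores were 156, 126 and 119 in iPSC and 55.8, 71.4 and 105 in MEF. A missing peak means only that no peak passed the caller's threshold there.

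The 7 regions found in every library began at 110656435, 110820102, 110855018, 111133174, 111189020, 111278637 and 111394302. The one at chr12:110656435-110657622, in bin 1, had the highest scores of the domain at D1. Its score was 235 in MEF, 665, 218 and 187 over the days of OySyNyK, 896, 265 and 202 over those of OSNK and 68.4 in iPSC. It was thus the strongest region of the domain at D1 of both methods, in the bin whose cover had dropped most from MEF. The region at chr12:111278637-111280758 scored 396 in MEF, 346, 228 and 71.8 with OySyNyK, 537, 154 and 231 with OSNK and 122 in iPSC. The region at chr12:110820102-110822614 held the widest and highest-scoring domain peak of OySyNyK D5, with a score of 228 and a width of 1628 bp. The strongest domain peak of OSNK D5, with a score of 234, lay in the region at chr12:111133174-111136693.

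The strongest region gained in the domain lay near the Dio3 end, at chr12:111488388-111491675 in bin 17. It was absent from MEF and present in all of the other 7 libraries, with scores of 325, 368 and 124 over the days of OySyNyK, 373, 315 and 203 over those of OSNK and 405 in iPSC. It gave the highest-scoring domain peak of iPSC, of OySyNyK D3 and of OSNK D3. In iPSC that peak was 2506 bp wide and at OySyNyK D3 3173 bp, the widest of the domain in each of these lists. Next by iPSC score among regions absent from MEF were chr12:110786741-110788583 in bin 3, with 279, and chr12:111409057-111409714 in bin 16, with 278, and both were found in iPSC only. The region at chr12:111108784-111110000 in bin 10, with 272 in iPSC and 87.6 in MEF, was found in no intermediate.

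The 4 MEF regions with the highest scores had no peak in iPSC or at either D5. The highest-scoring one, at chr12:111364802-111365794 in bin 15, scored 719 in MEF. Its region scored 225 at OySyNyK D1 and 272 at OSNK D1 and had no peak in any later library. In bin 14, the region at chr12:111308694-111309422 scored 573 in MEF, 125 and 51.1 at D1 and D3 of OySyNyK and 128 at OSNK D1, and had no peak at D5 or in iPSC. Also in bin 14, the region at chr12:111304388-111305416 scored 476 in MEF, 65.3 and 107 at D1 and D3 of OySyNyK and 120 at OSNK D1. Bin 8 held the next by MEF score, with 414, and a lower one with 366. Both regions of bin 8 were seen in MEF and at D1 of both methods only. Between them by MEF score lay chr12:111278637-111280758 (396), found in every library, and chr12:111383292-111385022 (367), with a peak at OySyNyK D5. Regions of MEF and both D1 lists with no later peak numbered 7 in the domain (3.89%, 1.58 to 7.85), 2 in the proximal flank and 1 in the distal flank, and made up 3.02% of all regions. The widest MEF peak, 2811 bp at chr12:110648859-110651669, crossed the proximal edge of the window and was counted in both the domain and the flank. It had a counterpart at D1 and D3 of OySyNyK and at all days of OSNK but not in iPSC.

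The median score in the domain lay above that of the list in every library but OSNK D3 and OySyNyK D5. In MACS, the peak caller, a score is a p-value on a log10 scale multiplied by -10, so it grows with depth as well as enrichment. Its median over domain peaks was 89.3 in iPSC (71.0 over the iPSC list) and 126 in MEF (103 over the MEF list). With OySyNyK it was 99.8, 86.0 and 71.4 by day, against 95.8, 84.2 and 75.8 over the lists. With OSNK it was 107, 75.9 and 89.0, against 105, 91.4 and 81.3. The proximal flank had medians of 114, 86.0 and 90.7 with OySyNyK, 113, 104 and 100 with OSNK, 80.6 in iPSC and 132 in MEF. The distal flank had 107, 102 and 83.7 with OySyNyK, 124, 107 and 105 with OSNK, 91.65 in iPSC and 99.4 in MEF. The domain median thus lay below both flank medians at every day of OSNK and at D1 and D5 of OySyNyK. Elsewhere it lay between them. A score of at least 100 was reached by 26.2% of the domain peaks at OySyNyK D5 (13.9 to 42.0), 38.1% at OSNK D5 (23.6 to 54.4), 39.8% in iPSC (29.8 to 50.5) and 58.7% in MEF (45.6 to 71.0). Over the whole lists the shares were 30.6%, 35.6%, 23.6% and 51.6% in the same order, so only the iPSC list share fell outside the domain's interval. The highest score was 228 at OySyNyK D5 and 234 at OSNK D5, against 405 in iPSC and 719 in MEF.

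**Figure D5:**
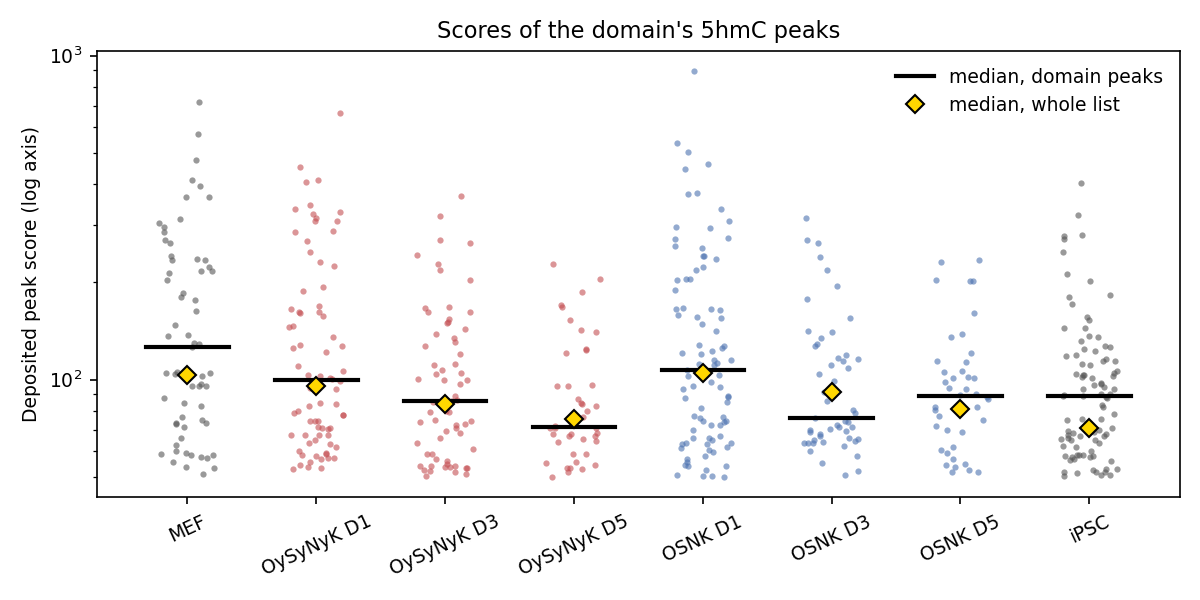
Deposited peak scores on a log axis (y axis) of all domain peaks in each library (x axis); each point is 1 peak, the black bar is the domain median and the diamond the median of the whole list. Domain medians lie below the list median at OSNK D3 (75.9 and 91.4) and OySyNyK D5 (71.4 and 75.8). They lie above it in every other library, among them iPSC (89.3 and 71.0), MEF (126 and 103) and OSNK D5 (89.0 and 81.3).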

How the data were processed

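5hmC was captured chemically from sonicated genomic DNA and sequenced in 8 samples, per the labels' protocols. The authors deposited 1 peak list per library, called per sample, with a score for each peak in which the lowest value was 50. Per the submitters' processing notes, Bowtie and MACS were used; which versions, parameters or control reads is not given in the sources used here. Those notes name hg18 and NCBI36, which are human builds. Peaks reached beyond the last GRCm38 gene on 10 of 20 chromosomes, and the lists were taken as mm9 from general knowledge of chromosome lengths. Coordinates are counted from 1.

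Samples were grouped by title. Cover, overlaps (at least 1 bp) and merged regions were computed with Python 3.11.15, numpy 2.4.6 and pandas 2.3.3, and tested on simulated lists. Only the number of MEF peaks overlapped by iPSC was checked against bedtools 2.31.1, with 11447 from each. Shares have exact Clopper-Pearson 95% intervals (scipy 1.17.1). Figures used matplotlib 3.10.9. A called difference was 5 percentage points of cover in a bin, over bins with a peak in either library. The text names bins by size of difference, the strongest and widest peak per library, and regions found in 6 or more libraries or in iPSC and not MEF; others were chosen after their values were seen. The window, lists and rules were chosen with earlier results of these data known. Alternatives were scores from 100 upward, lists cut to the same length (54938 peaks), 500-bp peaks, other bin settings and subtraction of the flanks.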

Additional observations from a re-analysis of the deposited data

How the results depend on the processing

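No paired analysis was possible because no group has replicates to pair. Both methods were sampled on the same days, and their differences by day are given as values, with no test made across days. Differences in domain cover (percentage points) are given here in 1 order: iPSC minus MEF, iPSC minus OySyNyK D5, iPSC minus OSNK D5, OySyNyK D5 minus MEF, OSNK D5 minus MEF, OySyNyK D5 minus D1, OSNK D5 minus D1, and OySyNyK minus OSNK at D1, D3 and D5. They were -0.524, 3.19, 2.69, -3.71, -3.21, -2.95, -3.24, -0.784, -0.282 and -0.498 with scores from 100 upward. They were 2.20, 5.33, 5.91, -3.12, -3.71, -1.19, -1.96, -0.184, -0.0319 and 0.586 with equal numbers of peaks. They were 1.67, 2.83, 2.89, -1.17, -1.22, -1.88, -2.67, -0.733, 0.791 and 0.0556 with 500-bp peaks. With the flanks subtracted they were -5.10, 3.23, 4.48, -8.33, -9.58, -4.23, -6.73, -1.25, 2.39 and 1.25. Without bin 1, a setting added after the data were seen, they were 1.60, 4.11, 4.14, -2.51, -2.54, -3.32, -4.12, -0.770, -0.383 and 0.0334. Signs turned for iPSC minus MEF with scores from 100 upward and with the flanks subtracted, for the D3 method difference with 500-bp peaks and with the flanks subtracted, and for the D5 method difference with scores from 100 upward; the cause was not tested. Alternatives for the 6 differences that involve D5 within a method, against MEF or against iPSC were also added later, and their signs held in all of these settings.

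Bins lower in iPSC than MEF numbered 4, and 2 with equal numbers of peaks, with 500-bp peaks, with a called difference of 10 points, with bins shifted by 25 kb and with cover relative to the library mean. Bins higher in iPSC numbered 5, but 3 with scores from 100 upward, 8 with a called difference of 2 points, 2 with one of 10 points and 8 with relative cover. Bins lower at D5 than D1 numbered 4 instead of 9 with OSNK with equal numbers, and with OySyNyK 3, 2 and 2 instead of 5 with scores from 100 upward, equal numbers and 500-bp peaks. Bins lower at D5 than in MEF numbered 3 with either method with 500-bp peaks, and bins higher in iPSC than at D5 numbered 4 for OySyNyK and 5 for OSNK with scores from 100 upward. Shares over all bins are given for the main setting only, so the counts under the alternatives have none beside them. The share of MEF domain peaks overlapped in iPSC stayed between 28.6% and 39.7%, inside the interval of the main value. With read depth unknown, a missing peak does not show that 5hmC was absent.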

Other observations

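Just outside the domain, the 4 bins from 110400001 to 110600000 in the proximal flank held no peak in any of the 8 libraries. In the distal flank, the bin at chr12:111700001-111750000 was covered to 32.8% and 28.0% at D3 and D5 of OySyNyK and to 47.3% and 53.2% at those of OSNK, with 20.1% in iPSC and 18.2% in MEF. The bin at chr12:111850001-111900000 had 39.97% in iPSC and no peak in MEF, with 6.18%, 12.1% and 17.2% over the days of OySyNyK and 3.26%, 13.2% and 14.5% over those of OSNK.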
